A study of Arabidopsis thaliana with 24 samples.

Results

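The genes described are 9 members of the large heat shock chaperone families of Arabidopsis thaliana, chosen by name and locus identifier out of the 18430 genes of the deposited count table. They are 4 HSP90 genes, HSP90.1 (AT5G52640), HSP90.2 (AT5G56030), HSP90.3 (AT5G56010) and HSP90.4 (AT5G56000), and 3 cytosolic HSP70 genes, HSC70-1 (AT5G02500), HSP70 (AT3G12580) and HSP70B (AT1G16030). The other members are 2 genes of the ClpB type, HSP101 (AT1G74310) and CLPB3 (AT5G15450). All 9 were in the table and passed the filter on low counts, so none is left out of the tests.

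HSP90 proteins fold and keep active many signalling proteins, HSP70 proteins bind exposed stretches of unfolded proteins, and ClpB proteins pull aggregated proteins apart together with HSP70. In plants, as in other eukaryotes, some copies of each family serve cells at all times and others are switched on by heat and other stress that damages proteins. Heat shock factors drive the inducible copies by binding heat shock elements, runs of short inverted GAA and TTC blocks, and HSP70 and HSP90 themselves restrain these factors.

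The study profiled whole wild-type (wt) and bzip68 mutant seedlings by RNA-seq, and bZIP68-FLAG seedlings by chromatin immunoprecipitation (ChIP-seq). The mutated gene encodes a bZIP transcription factor whose group, G, is known for binding the G-box CACGTG. The RNA seedlings compared here were 14 days old, grew in white light at 125 µmol per m2 and second, and were sprayed. The LowLight.wt and LowLight.bzip68 groups, with 3 samples each at 30 µmol per m2 and second, were not used here. The mock.wt and mock.bzip68 groups received water with 0.01% triton X-100, and the H2O2.wt and H2O2.bzip68 groups 5 mM hydrogen peroxide in the same detergent, with 3 samples in each of the 4 groups. ChIP seedlings were 8 days old with no treatment named, 3 samples of bZIP68-FLAG and 3 of GFP-FLAG, which served as the control. The allele, whether the mutant is more than a single line, the promoter behind each FLAG fusion, what the bZIP68-FLAG plants have of their own BZIP68, and the time between spraying and harvest are unstated in the sources used here. The labels do not say whether replicates were grown separately, so p-values reflect a spread that may be technical.

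Total counts ran from 8997073 to 10262992 per library. BZIP68 (AT1G32150) had 70 to 102 counts in the wt libraries and 0 to 2 in the bzip68 libraries. On principal components of log2 CPM (CPM is the count of a gene relative to the scaled library total), 2 libraries lay away from the rest, H2O2.wt replicate 2 and mock.bzip68 replicate 2. In the former 0.0121% of counts fell in chloroplast genes, and in the other 11 libraries 1.05% to 1.54%. The 4 leaf markers (RBCS1A, RCA, CAB1, PORC) summed to between 40870 and 60350 CPM in every library, and 0 of 4 seed storage genes were in the table. The 5 root markers summed to 62.8 to 69.7 CPM in mock.wt, 74.2 to 86.1 in mock.bzip68, 43.5 to 52.5 in H2O2.wt and 45.9 to 50.7 in H2O2.bzip68. SCR, CASP1, EXPA7 and EXPA18 were the root markers that fell after H2O2, SCR in wt and the other 3 in bzip68. Of the 5, CASP1 and MYB36 had log2 fold changes above 0 in wt, and none did in bzip68. The summed level thus lay lower in all H2O2 libraries than in all mock libraries, and its part in the results below was not tested. In whole seedlings, fewer cells of a type and less RNA per cell cannot be told apart.

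The sites that carry the sequence side of the results are shown first, because they hold the elements that heat shock factors and group G factors are known to bind. All come from RefSeq's TAIR10.1 assembly, whose nuclear chromosomes are those of TAIR10. Each is 30 bases on the coding strand of its gene, and capitals mark the motif. The first set is the 3-unit heat shock element, searched on both strands as the blocks GAA, TTC and GAA, or TTC, GAA and TTC, each 2 bases from the next, within 500 bases before the first coding base, and every match at the 9 genes is shown.
HSP90.1 heat shock element: aaacgaaaaGAACTTTCTGGAAttcgtttg
HSP70 heat shock element: tttactcgtGAACGTTCTCGAAagctcttt
HSC70-1 heat shock element: acaaccatcGAACATTCTCGAAacatttta

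The second set is the G-box CACGTG, the element of group G factors, found in the same window at 3 genes, which are again all shown.
HSP101 G-box: aagcgaaaattcCACGTGacatctacctgt
CLPB3 G-box: tctgagagtgaaCACGTGtcagaagaaggt
HSC70-1 G-box: taaaacaacttgCACGTGgaaagagagact

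The heat shock elements lie on chr5:21352253-21352282 (plus strand) for HSP90.1, chr3:3993846-3993875 (minus strand) for HSP70 and chr5:556554-556583 (minus strand) for HSC70-1. They begin 295, 177 and 240 bases before the first coding base, and those of HSP70 and HSC70-1 fall within the annotated 5′ untranslated region. The G-boxes lie on chr1:27940315-27940344 for HSP101, chr5:5018507-5018536 for CLPB3 and chr5:556676-556705 for HSC70-1, all on the minus strand. In HSP101 the G-box directly follows a 2-unit heat shock element, GAAAATTC, which ends where CACGTG begins.

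Matches of these letters are a description and not proof of a binding site. Among 27443 protein-coding genes, 1.2% held the 3-unit element, 33.9% a 2-unit element (GAA and TTC, or TTC and GAA, 2 bases apart, which also counts parts of each 3-unit element), 9.3% the G-box and 62.6% the ACGT core, which every G-box contains. A 2-unit element was found at 6 of the 9 genes, HSP90.1, HSP101, CLPB3, HSP70, HSC70-1 and HSP70B, and at none of HSP90.2, HSP90.3 and HSP90.4. Of the genes that rose after H2O2 (below), HSP90.1 and HSP70 held the 3-unit element, and HSP101 and HSP70B did not. HSC70-1, which was not called, held it too. This window was chosen after the data were seen. At HSP101 and HSP90.2 nearly all of it lies after the annotated start of transcription, so it reaches few bases before that start. In a window from 250 bases before to 50 after the annotated start of transcription, 0.5% of promoters held the 3-unit element, 19.5% the 2-unit element, 7.7% the G-box and 49.9% the ACGT core. There the G-box again lay at HSP101, CLPB3 and HSC70-1, and the 3-unit element at HSP70 alone of the 9. The reference model of HSP90.1 starts at its first coding base, so that second window is not its promoter.

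In mock-sprayed seedlings HSC70-1, HSP90.3, HSP90.2 and CLPB3 had the highest levels among the 9 genes, while HSP90.4 was low beside them. Levels between genes are given here as mean CPM per kb of annotated exon in mock.wt. HSC70-1, the main constitutive cytosolic HSP70, stood at 892 ± 59.5 (SD, n = 3), above 99.6% of the 18056 tested genes with a known length. HSP90.3 (91.4 ± 14.3) and HSP90.2 (74.1 ± 7.83) followed and overlapped each other, while CLPB3, the chloroplast ClpB, stood at 51.8 ± 4.70. HSP70 had 34.0 ± 6.86, below every CLPB3 sample. HSP90.1 (9.31 ± 2.096) and HSP90.4 (7.62 ± 0.836) overlapped, at the 53.0th and 46.6th percentile of genes. HSP101 (3.94 ± 0.687) and HSP70B (1.19 ± 0.144) closed the order, at the 27.6th and 5.1st percentile. The order in mock.bzip68 was the same, except that HSP90.4 (8.72 ± 0.0714) lay above HSP90.1 (8.05 ± 0.976). The model of HSP90.1 holds no untranslated bases, so its level per kb is per coding length and can be too high beside the others.

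H2O2 rearranged that order without moving its top. In H2O2.wt, HSC70-1 still led at 724 ± 56.4 CPM per kb, but HSP70 came second (81.7 ± 14.8), overlapping HSP90.3 (75.3 ± 2.53). HSP90.1 reached 60.3 ± 13.1, within the spread of HSP90.2 at 64.1 ± 7.37. HSP101 reached 31.4 ± 9.04 and lay within the spread of CLPB3 at 31.6 ± 4.21. HSP70B moved up to 9.06 ± 2.09 and overlapped HSP90.4, now the lowest at 6.86 ± 0.805. In H2O2.bzip68 the order differed in where HSP90.1 (88.5 ± 16.9) and HSP101 (38.9 ± 11.9) fell, each 1 place higher and each overlapping the gene it passed.

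**Figure D1:**
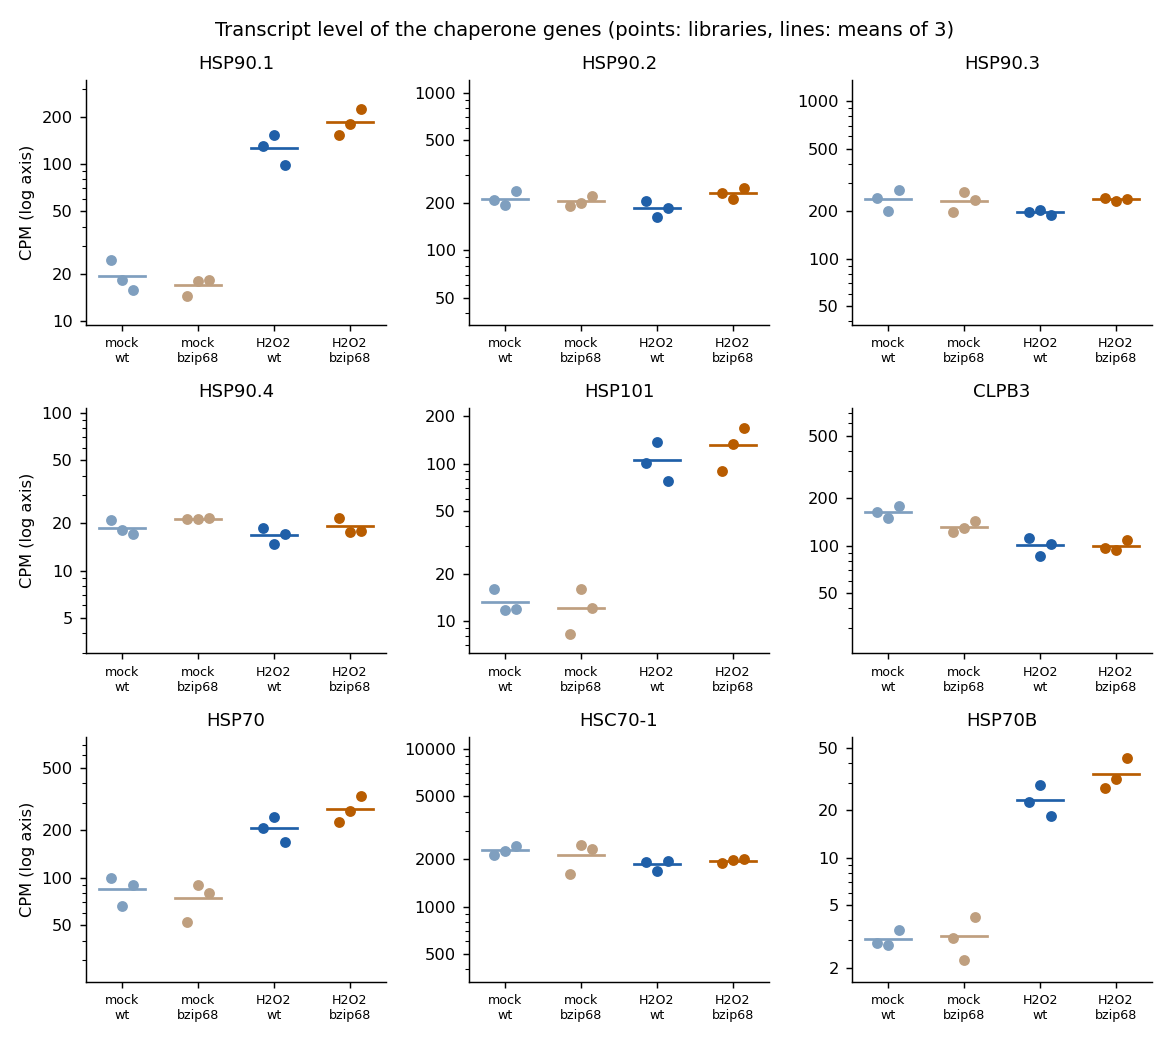
Transcript level of each chaperone gene in CPM (log axis) in the 4 groups; points are single libraries and lines are means of 3. HSP90.1, HSP101, HSP70 and HSP70B separate the H2O2 libraries from the mock libraries, while the groups of HSP90.2, HSP90.3 and HSP90.4 lie close together.

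The first comparison asks how wild-type seedlings responded to H2O2. Of the 9 genes, 4 rose (HSP90.1, HSP101, HSP70 and HSP70B), 1 fell (CLPB3) and 4 did not pass the test (HSP90.2, HSP90.3, HSP90.4 and HSC70-1). Of all genes tested, 5.02% were called higher and 4.72% lower. The median log2 fold change was -0.15 over the 9 genes and -0.0037 over all 18205 tested, because the induced genes are fewer than those that were not.

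HSP101 is the cytosolic disaggregase that plants need to survive severe heat after acclimation. Its level was 15.9, 11.8 and 11.997 CPM in the mock.wt samples and 102, 138 and 77.6 CPM in the H2O2.wt samples. Every treated sample lay far above every mock sample. The rise was 7.98-fold, a log2 fold change of 3.00 ± 0.29 (SE, n = 3 per group; edgeR quasi-likelihood test, Benjamini-Hochberg adjusted p = 2.41e-05).

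HSP90.1 is the heat-inducible member of the cytosolic HSP90 genes. It had 24.4, 18.4 and 15.9 CPM in mock.wt and 130, 153 and 98.1 CPM in H2O2.wt. The groups did not overlap, and the log2 fold change was 2.70 ± 0.20 (edgeR, adjusted p = 7.12e-07). It ranked 23rd of all genes tested by p-value.

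HSP70B, a stress-induced cytosolic HSP70, was hardly expressed in mock plants, with 25 to 35 counts per mock.wt library. It went from 2.88, 2.79 and 3.47 CPM in mock.wt to 22.6, 29.0 and 18.3 CPM in H2O2.wt. The low sample of the treated group was still several times the highest mock sample. The log2 fold change was 2.93 ± 0.25 (edgeR, adjusted p = 1.84e-06).

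HSP70, the heat-inducible gene with the highest mock level of the 4, rose less. It stood at 99.9, 66.4 and 90.42 CPM in mock.wt and at 206, 243 and 169 CPM in H2O2.wt, again without overlap. The log2 fold change was 1.27 ± 0.21, or 2.41-fold (edgeR, adjusted p = 0.00131). In each of the 4 genes the highest treated wt sample was H2O2.wt replicate 2, which stands apart on the principal components. Without both libraries that stand apart the log2 fold changes were 2.76 (HSP101), 2.54 (HSP90.1), 2.74 (HSP70B) and 1.13 (HSP70), and all 4 were still called.

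CLPB3, which works in the chloroplast and is needed for its development, went the other way. It fell from 165, 150 and 180 CPM to 113, 86.1 and 103 CPM. All treated samples lay below all mock samples, a level 1.64-fold lower with a log2 fold change of -0.71 ± 0.13 (edgeR, adjusted p = 0.00182). The lowest sample, H2O2.wt replicate 2, is the one with few chloroplast counts, and without both libraries that stand apart the value was -0.61 (adjusted p = 0.00571).

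The constitutive genes lay close to their mock level. HSC70-1 had 2135, 2263 and 2438 CPM in mock.wt and 1920, 1685 and 1946 CPM in H2O2.wt, groups that did not overlap but whose difference of -0.30 ± 0.15 missed the threshold (edgeR, adjusted p = 0.242). HSP90.2 ranged from 192 to 237 CPM in mock.wt and from 163 to 205 CPM in H2O2.wt. HSP90.3 ranged from 200 to 274 and from 190 to 203 CPM, and HSP90.4 from 16.9 to 20.9 and from 14.8 to 18.7 CPM. Their log2 fold changes were -0.21 ± 0.13, -0.28 ± 0.14 and -0.15 ± 0.14, with 95% intervals of -0.48 to 0.06, -0.57 to 0.01 and -0.44 to 0.14. These intervals leave room for a modest fall and none for a rise like that of HSP90.1.

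Those 3 genes form a row on chromosome 5 and are much alike. HSP90.4 (chr5:22677338-22680152, minus strand) is 1085 bp from HSP90.3 (chr5:22681238-22684252, plus strand), which is 2220 bp from HSP90.2 (chr5:22686473-22689671, plus strand). Of all 50-base words in their exons, 24.8% in HSP90.3, 19.5% in HSP90.4 and 18.9% in HSP90.2 recur exactly in another annotated gene, in each case another of these 3. HSP90.1 had 0 such words, and the other members 0% to 0.2%. Counting can split reads among the 3, so their separate values are uncertain. Summed, they gave 473, 410 and 528 CPM in mock.wt and 422, 380 and 391 CPM in H2O2.wt, with a log2 fold change of -0.24 ± 0.12 (edgeR, adjusted p = 0.268).

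The other members lie apart from each other. HSP90.1 lies at chr5:21352557-21355147 (plus strand), CLPB3 at chr5:5014212-5018347, HSC70-1 at chr5:553745-556623, HSP70 at chr3:3991117-3993886, HSP101 at chr1:27936508-27940369 and HSP70B at chr1:5501966-5504535, the last 5 on the minus strand. HSP101 overlaps AT1G74300 by 101 bp and CLPB3 overlaps EDL1 by 70 bp, both on the opposite strand. Whether counting used strand is not given in the sources used here, so reads in those overlaps cannot be assigned.

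The same question put to the mutant gave the same 4 rising genes. Of the 9, 4 rose and 0 fell, against 4.11% called higher and 3.28% called lower among all genes tested. The median log2 fold change was 0.17 for the 9 and -0.00056 for all genes. The test of the difference between the genotypes' responses is given further on.

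In bzip68, HSP90.1 rose from 14.6, 18.02 and 18.204 CPM to 154, 180 and 224 CPM. The lowest treated sample was more than 8 times the highest mock sample, and the log2 fold change was 3.46 ± 0.21 (edgeR, adjusted p = 6.66e-08). HSP101 rose from 8.31, 16.0 and 12.1 CPM to 89.2, 134 and 169 CPM. Its log2 fold change was 3.43 ± 0.30 (edgeR, adjusted p = 1.01e-05).

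HSP70B rose from 3.08, 2.22 and 4.23 CPM to 27.5, 31.6 and 43.0 CPM, by 3.41 ± 0.25 on the log2 scale (edgeR, adjusted p = 3.96e-07). HSP70 rose from 52.3, 90.71 and 80.4 CPM to 228, 264 and 330 CPM, by 1.88 ± 0.22 (edgeR, adjusted p = 7.20e-05). For each of the 4 genes the treated and mock samples were fully separated, and in each the highest treated sample was H2O2.bzip68 replicate 3.

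CLPB3 had 122, 129 and 144 CPM in mock.bzip68 and 96.5, 94.6 and 109 CPM in H2O2.bzip68. The groups did not overlap, but the log2 fold change of -0.39 ± 0.13 did not pass (edgeR, adjusted p = 0.0831); DESeq2 called it lower at -0.40 (adjusted p = 0.0367). HSC70-1 had 1616, 2471 and 2316 CPM in mock.bzip68 and 1956 ± 69.7 CPM (SD, n = 3) in H2O2.bzip68, where all 3 samples lay within the mock range. HSP90.2, HSP90.3 and HSP90.4 had log2 fold changes of 0.17, 0.04 and -0.16 (edgeR, adjusted p = 0.517, 0.93 and 0.595).

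**Figure D2:**
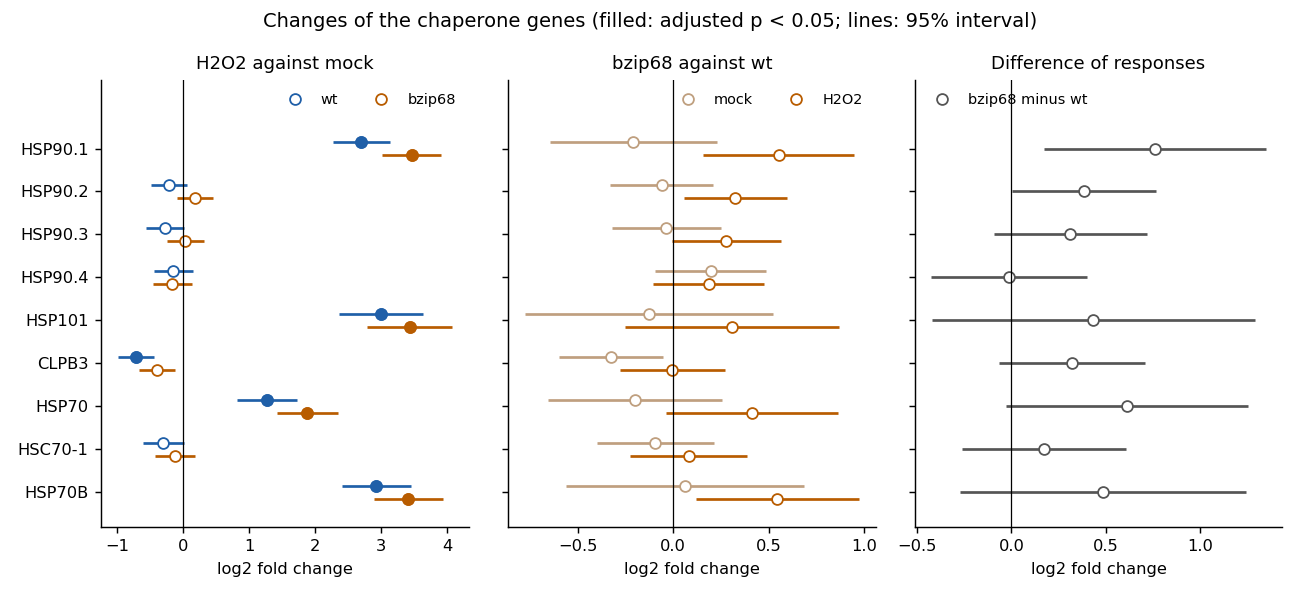
Log2 fold changes of the chaperone genes with 95% intervals from the edgeR fit, for H2O2 against mock, bzip68 against wt, and the difference of responses; filled points passed the adjusted threshold of 0.05. The filled points are HSP90.1, HSP101, HSP70 and HSP70B in both genotypes and CLPB3 in wt, and none is in the other panels.

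HSP90.1 made up 5.16% ± 1.29 of the summed CPM per kb of the 4 HSP90 genes in mock.wt and 29.0% ± 4.84 in H2O2.wt, and 4.54% ± 0.148 and 32.9% ± 3.94 in bzip68 (SD, n = 3). Calculated per coding length, to set HSP90.1 on the same footing, the shares were 4.11% and 24.4% in wt and 3.61% and 27.8% in bzip68. The sum of the 4 genes was 182 ± 21.3 CPM per kb in mock.wt and 207 ± 14.2 in H2O2.wt, and 177 ± 16.8 and 268 ± 21.7 in bzip68.

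HSP70 and HSP70B together made up 3.80% ± 0.826 of the 3 HSP70 genes in mock.wt, 11.2% ± 2.63 in H2O2.wt, 3.53% ± 0.162 in mock.bzip68 and 13.7% ± 1.90 in H2O2.bzip68. HSC70-1 thus remained by far the main HSP70 transcript of the 3, and their sum was 927 ± 58.7 CPM per kb in mock.wt and 815 ± 41.6 in H2O2.wt, and 866 ± 186 and 888 ± 49.9 in bzip68. HSP101 was 7.09% ± 1.22 of HSP101 and CLPB3 together in mock.wt and 49.4% ± 9.70 in H2O2.wt, and 8.01% ± 2.30 and 54.5% ± 6.82 in bzip68. The sum of this ClpB pair was 55.7 ± 4.77 CPM per kb in mock.wt and 63.0 ± 6.76 in H2O2.wt, and 44.9 ± 4.02 and 70.4 ± 13.9 in bzip68.

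**Figure D3:**
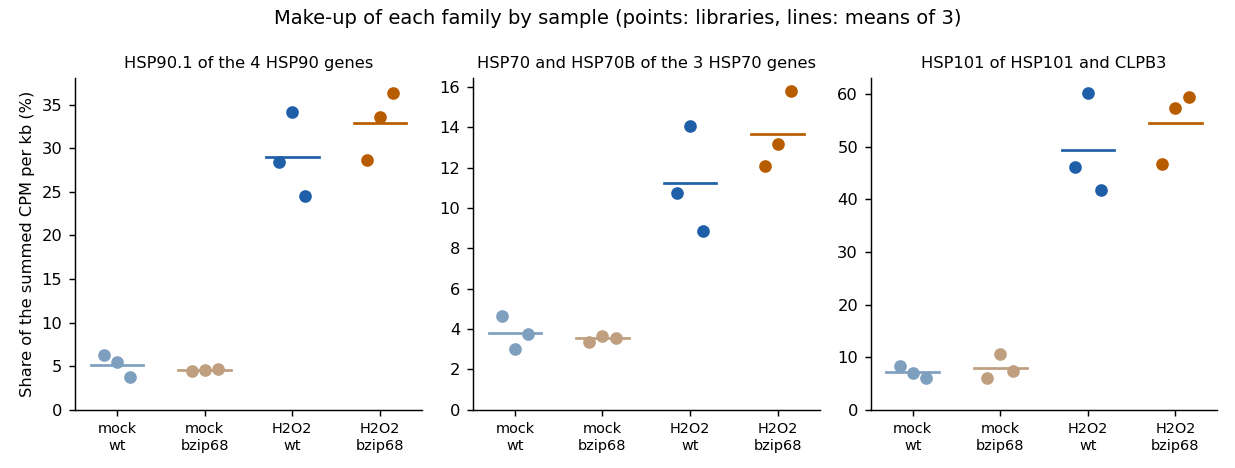
Share of the summed CPM per kb (percent) taken by HSP90.1 among the HSP90 genes, by HSP70 with HSP70B among the HSP70 genes, and by HSP101 among HSP101 and CLPB3; points are libraries and lines means of 3. In each panel all H2O2 libraries lie above all mock libraries, and HSP101 goes from 5.95% to 10.5% in mock libraries to between 41.7% and 60.3% after H2O2.

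The comparison of bzip68 with wt asks which levels depend on bZIP68. After mock treatment none of the 9 genes passed the test, where 0.214% of all genes tested did (39 genes by edgeR). At an unadjusted p under 0.05, where 1837 of 18205 genes were, there was 1, CLPB3, with a log2 fold change of -0.33 ± 0.13 (edgeR, adjusted p = 0.394), and DESeq2 called 0 of the 9. CLPB3 and HSP90.4 were the 2 of 9 genes whose samples did not overlap between the genotypes, against 14.2% of all genes tested, CLPB3 lower and HSP90.4 higher in bzip68. The 9 log2 fold changes ran from -0.33 to 0.20 with a median of -0.09, against 0.0065 over all genes.

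After H2O2 none of the 9 passed either, where 0.0714% of genes did (13 genes by edgeR), and DESeq2 again called 0 of the 9. Of the 9 log2 fold changes 8 were positive, with a median of 0.31 against 0.0025 over all genes, and CLPB3 was the exception at -0.0043. The 9 values come from the same libraries and are not independent. At an unadjusted p under 0.05, where 1681 of 18205 genes were, there were 3, HSP90.1 (0.55 ± 0.19; edgeR, adjusted p = 0.386), HSP70B (0.55 ± 0.20; adjusted p = 0.441) and HSP90.2 (0.32 ± 0.13; adjusted p = 0.46). For HSP90.1 the bzip68 samples at 154, 180 and 224 CPM all lay above the wt samples at 130, 153 and 98.1 CPM, by a narrow gap between the nearest libraries. HSP90.2 and HSP90.3 also had no overlap between genotypes, so 3 of 9 did not, against 16.7% of all genes tested. HSP101 was at 0.31 ± 0.26 with a 95% interval of -0.25 to 0.87, and HSP70 at 0.41 ± 0.21 with an interval of -0.04 to 0.86, so a moderate difference in either lies within the interval. With 1 library left out HSP101 ran from 0.08, without H2O2.bzip68 replicate 3, to 0.55, without H2O2.wt replicate 2.

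The difference of the 2 responses asks whether the mutant reacted to H2O2 unlike the wild type. None of the 9 genes passed, and among all genes tested 0% did by edgeR (1178 genes had an unadjusted p under 0.05), while DESeq2 called 24 genes and none of the 9. HSP90.1 was at 0.76 ± 0.28 (95% interval 0.17 to 1.35; edgeR, adjusted p = 0.722). HSP90.1 and HSP90.2 were the 2 with an unadjusted p under 0.05, and HSP90.2 was at 0.39 ± 0.18 (edgeR, adjusted p = 0.76). HSP101, HSP70 and HSP70B were at 0.44 ± 0.40, 0.61 ± 0.30 and 0.48 ± 0.36, with intervals of -0.42 to 1.29, -0.03 to 1.26 and -0.27 to 1.24. With 1 library left out HSP101 ran from 0.21, without H2O2.bzip68 replicate 3, to 0.68, without mock.bzip68 replicate 2. HSP90.4 was at -0.01 ± 0.19. The intervals of the induced genes reach beyond a doubling, so these libraries do not show that the genotypes respond alike.

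Genes that work with these chaperones were counted in 6 further lists. Of 8 measured small heat shock proteins, which hold unfolding proteins until HSP70 and HSP101 take them over, 6 rose and 0 fell in wt and 7 rose in bzip68. Their median log2 fold change was 3.78 in wt and 5.15 in bzip68, above the value of any of the 9 chaperones. Mock levels in this list were low, for HSP17.6A 0.709 CPM in wt and 0.405 CPM in bzip68. Such fold changes rest on few mock counts, so their size is uncertain. HSP17.6C went from 0.421 to 14.4 CPM in wt and from 0.253 to 29.6 CPM in bzip68, HSP17.8 from 1.64 to 21.2 and from 1.08 to 31.4 CPM, and HSP17.4 from 1.53 to 27.7 and from 1.09 to 48.4 CPM. For HSP17.6C the edgeR adjusted p was 3.46e-07 in wt and 2.96e-08 in bzip68.

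Of 15 co-chaperones, 4 rose in wt and 5 in bzip68, with none lower. FES1A, a nucleotide exchange factor of cytosolic HSP70, rose by 2.05 ± 0.21 in wt and 2.103 ± 0.21 in bzip68 on the log2 scale (edgeR, adjusted p = 1.22e-05 and 1.03e-05). BAG6, which belongs to a family that binds HSP70, rose by 2.31 ± 0.27 and 2.58 ± 0.27. HOP3, which links HSP70 to HSP90, rose by 1.55 ± 0.24 and 2.45 ± 0.25. The remaining called genes, named after their values were seen, were ROF2 in both genotypes and HSA32 in bzip68. The list's median was -0.03 in wt and 0.27 in bzip68, with 6 of 15 values positive in wt and 13 of 15 in bzip68.

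Of 13 measured heat shock factors, 2 rose and 1 fell in wt, and 4 rose in bzip68. HSFA2, a factor known to amplify the heat and oxidative stress response, rose from 2.19 ± 1.22 to 8.89 ± 3.48 CPM in wt and from 1.41 ± 0.709 to 13.4 ± 3.27 CPM in bzip68 (edgeR, adjusted p = 0.00425 and 0.000237). HSFA8 rose by 1.29 ± 0.15 and 1.84 ± 0.16 on the log2 scale. HSFC1 fell by 0.67 in wt (edgeR, adjusted p = 0.0333), and HSFA3 rose by 1.07 ± 0.26 in bzip68. HSFA4A, named after its values were seen, was the other to rise in bzip68.

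HSP70 genes outside the 9 were mixed. Of 13 measured, 2 rose and 2 fell in wt, and 1 rose and 1 fell in bzip68. HSP70T-2 rose by 2.15 ± 0.29 in wt and 2.29 ± 0.28 in bzip68 on the log2 scale, from about 2.13 and 2.48 CPM in mock plants. CPHSC70-2, a chloroplast HSP70, fell from 498 to 288 CPM in wt and from 442 to 297 CPM in bzip68 (edgeR, adjusted p = 0.000481 and 0.00762), the direction of CLPB3 in wt. Its chloroplast relative CPHSC70-1, named after its values were seen, was not called. The log2 fold changes of CPHSC70-1 were -0.16 in wt and -0.14 in bzip68 (edgeR, adjusted p = 0.499 and 0.587). MTHSC70-1, a mitochondrial HSP70, fell by 1.05 in wt (edgeR, adjusted p = 0.0067), from a scattered 316.5 ± 107.5 CPM to 152.4 ± 14.2 CPM (SD). In bzip68 its log2 fold change of -0.16 did not pass (edgeR, adjusted p = 0.777). BIP3, named after its values were seen, rose in wt. None of 3 organelle HSP90 genes and none of 4 other HSP100 genes passed in either genotype by edgeR. At an unadjusted p under 0.05 there was 1 organelle HSP90 gene in each genotype, called by DESeq2 in wt, and 1 other HSP100 gene in bzip68.

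Between the genotypes, 0 of the 56 measured genes of these 6 lists passed by edgeR in mock or H2O2 plants, and 0 in the difference of responses. At an unadjusted p under 0.05 there were 6 in mock plants, 18 after H2O2 and 15 in the difference, against 1837, 1681 and 1178 of 18205 genes, and DESeq2 called 2, 3 and 1. All 3 that DESeq2 called after H2O2 were small heat shock proteins. That list had all 8 log2 fold changes of bzip68 against wt positive after H2O2, with a median of 0.90 and all 8 at an unadjusted p under 0.05. In the same comparison 14 of 15 co-chaperones (median 0.34), 11 of 13 heat shock factors (0.17), 10 of 13 other HSP70 genes (0.16), 3 of 3 organelle HSP90 genes (0.07) and 2 of 4 other HSP100 genes (0.02) had positive values. The median over all genes tested was 0.0025. All these genes were measured in the same libraries, so their signs are not independent and the counts of positive values are only a description.

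**Figure D4:**
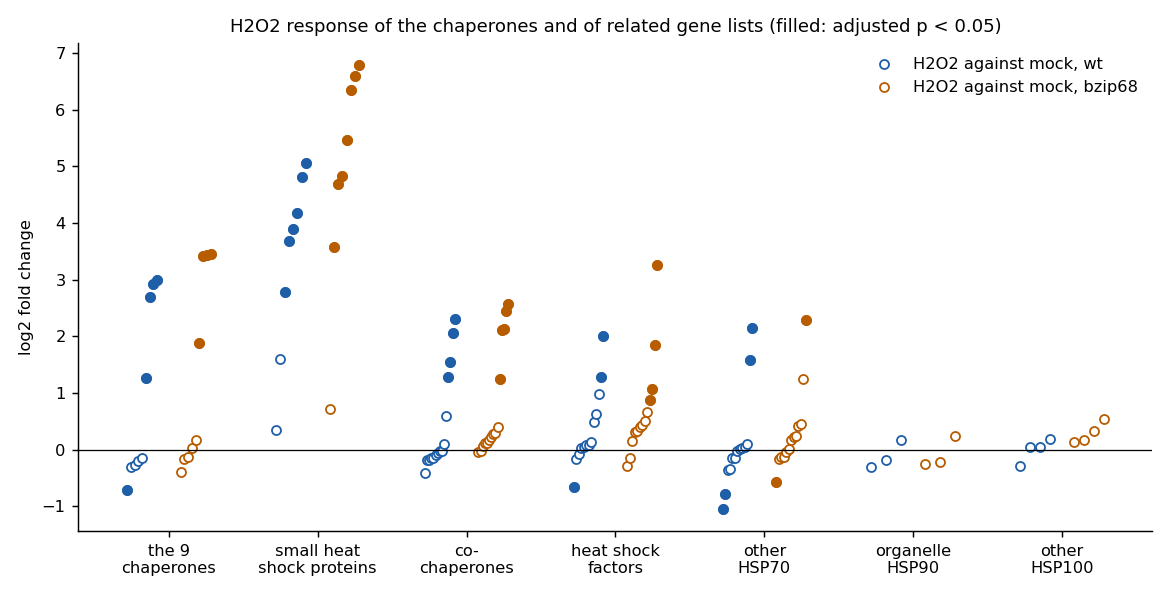
Log2 fold changes after H2O2 of the chaperones and of 6 related lists, in wt (blue) and bzip68 (orange); each point is a gene and filled points passed the adjusted threshold of 0.05. The small heat shock proteins have the highest medians, 3.78 in wt and 5.15 in bzip68, from low mock levels, and none of the organelle HSP90 and other HSP100 points is filled.

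Over the 12 libraries log2 CPM of HSP90.1 and HSP101 correlated at r = 0.993, and after each group's mean was removed at 0.879. For HSP101 and HSP70 the values were 0.98 and 0.906, while HSP70B followed HSP101 less closely within groups, at 0.338. Pairs with a gene that did not rise also reached high values within groups, 0.966 for HSP90.2 and CLPB3 and 0.764 for HSP90.3 and HSP70. These are descriptions over libraries that fall into 2 clusters by treatment, so the first value of each pair mostly restates the rise after H2O2.

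Of the genes outside the 9, those most like HSP101 over the 12 libraries were FES1A (r = 0.991, within groups 0.863), DREB2A (0.988 and 0.714) and HSP17.6A (0.987 and 0.714). Those most like HSP90.1 were HSP17.4 (0.997 and 0.837), HSP17.6A (0.996 and 0.847) and PMZ (0.993 and 0.654). Those most like HSP70 were HSFA2 (0.983 and 0.861), ATERDJ3A (0.982 and 0.802) and HOP3 (0.979 and 0.761). Pearson's r of log2 CPM was the measure of likeness, and it rests on shared libraries.

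The ChIP-seq lists ask where bZIP68-FLAG binds. Of the 9 genes, 2 were assigned a peak in the authors' larger list, HSC70-1 with 2 peaks and HSP90.2 with 1. That is 22.2% of the 9, close to the 22.6% of all genes in the count table with a peak in this list. In the shorter list, which covers 3.88% of the genes, 0 of the 9 had one. None of the 4 genes that rose after H2O2 in both genotypes had an assigned peak. So few genes cannot be told from the share over all genes. Among related genes, 3 of 8 small heat shock proteins had a peak in the larger list, HSP17.4, HSP17.6B and HSP17.8, and 2 in the shorter list. These 3 also rose in both genotypes. In the larger list it was 2 of 15 co-chaperones, 1 of 13 heat shock factors and 7 of 13 other HSP70 genes.

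HSC70-1 carried the strongest of these peaks. It lay at chr5:555902-556850 and reached from -227 to 721 bp relative to the start of transcription, with an authors' score of 181, higher than 60.7% of the peaks in the larger list. The score is the authors' own and grows as the peak's p-value gets smaller. The second peak, at chr5:555747-555868, lay 755 to 876 bp into the gene (score 140). A further peak at chr5:553678-555375 covers the 3′ part of HSC70-1 and was assigned by the authors to the neighbouring HSP70 gene AT5G02490 (score 126).

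The peak over the start holds the G-box of HSC70-1, 1 match of CACGTG centred 68 bases before the start, while the other 2 peaks hold none. Of all nuclear peaks in the larger list, 47.4% hold a CACGTG and 93.6% an ACGT. The 250 bases before the start of HSC70-1, at chr5:556624-556873 on the minus strand, are shown because they are the only promoter of the 9 under a peak, with the G-box in capitals.
HSC70-1 promoter: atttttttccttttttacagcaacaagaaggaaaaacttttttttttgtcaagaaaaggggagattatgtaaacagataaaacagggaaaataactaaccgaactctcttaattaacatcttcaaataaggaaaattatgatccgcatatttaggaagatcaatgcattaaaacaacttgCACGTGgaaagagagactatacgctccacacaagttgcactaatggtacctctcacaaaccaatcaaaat

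HSC70-1 is also among the most abundant transcripts, and peaks were more frequent at such genes. With genes split by mock.wt level into 10 bins of equal size, 32.0% of the highest bin had a peak in the larger list, against 18.1% and 18.9% in the ninth and the tenth such bin, the lowest. Whether the level bears on the peaks at HSC70-1 was not tested. The levels come from 14-day seedlings and the peaks from 8-day seedlings.

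The peak of HSP90.2, at chr5:22688801-22689558, lay 2328 to 3085 bp into the gene, towards its 3′ end, with a score of 57.4, higher than 0.5% of the peaks in the list. It holds no CACGTG and 1 ACGT. Near other members, peaks assigned to their neighbours lay 1879 bp before HSP90.1, 1974 bp before HSP70B and 1721 bp beyond the end of HSP101, and none of these holds a CACGTG. The G-boxes of HSP101 and CLPB3 shown above were under no peak, and no peak lay within 3000 bp of HSP70, CLPB3, HSP90.3 or HSP90.4.

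**Figure D5:**
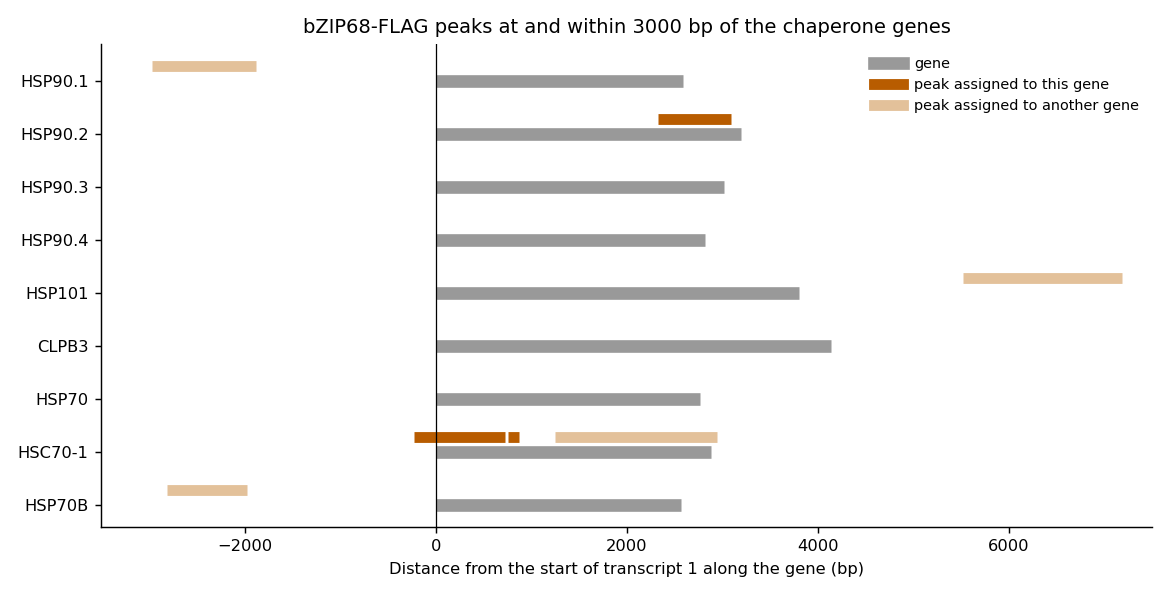
Positions of bZIP68-FLAG peaks relative to the start of transcription (bp, negative before the start) for the chaperone genes, with genes in grey, peaks assigned to the gene in dark orange and peaks assigned to another gene in light orange. HSC70-1 is the only gene of the 9 with a peak over its start.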

How the data were processed

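The authors deposited 1 table of whole-number counts per gene; per the submitters' processing notes, which assign no roles, RSEM 2.1.30 and TopHat2 2.1.0 go with the RNA samples, ChIPseeker and MACS 1.4.3 with the ChIP samples, and the build is TAIR10. Whether the counts are rounded RSEM estimates is not given in the sources used here. The 12 mock and H2O2 columns were used, and 6 per-sample columns that matched no label were not used. Genes were filtered with filterByExpr by group (18205 kept), scaled by TMM and fitted with edgeR 4.0.16 (quasi-likelihood F-test, robust, 1 mean per group, 8 residual degrees of freedom) in R 4.3.3. A gene was called at a Benjamini-Hochberg adjusted p under 0.05 over all genes of a comparison. SEs come from the F statistic, intervals are at 95%, CPM uses TMM-scaled totals, and correlations use log2 CPM with a prior count of 2.

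Per the file headers, the larger list holds peaks that passed a p-value of 1e-05 against GFP-FLAG, and the shorter list those that passed an adjusted p-value of 1e-30 near a start. The deposited score is a multiple of the p-value's negative log10. Whether samples were pooled for peak calling is not stated, so replicates cannot be compared. Of the genes with a peak, 5343 were found in RefSeq TAIR10.1, all on the same chromosome and overlapping. Exon lengths, promoters and genome sequence are RefSeq's.

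Replicates differed by more than sampling noise (6.06 to 28.3 chi-square units per degree of freedom). Between H2O2.bzip68 and mock.bzip68, libraries with the same number deviated together (r = 0.374, 0.487 and 0.178). In the wt response all 3 values were negative (-0.147, -0.0687 and -0.0956), and in both genotype comparisons the signs were mixed. With 3 libraries per group such values can arise without pairing, and the labels name none, so whether libraries are paired is not known.

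The members and gene lists were chosen with earlier results of these data known. Named are all 9 members, BZIP68, up to 3 called genes per list and comparison with the smallest adjusted p, the 3 genes most like HSP101, HSP90.1 and HSP70, and peaks assigned to a member or within 3000 bp. Alternatives were DESeq2 1.42.0, its size factors in edgeR, no filter, a replicate block, a fit of only the libraries compared, leaving out libraries and, added after seeing the data, the summed HSP90 counts and the 500-base window. The edgeR step was tested on simulated data.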

Additional observations from a re-analysis of the deposited data

How the results depend on the processing

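The number of members called was the same under every alternative run (5 and 4 in the responses of wt and bzip68, 0 in the other 3 comparisons), except that DESeq2 added CLPB3 in bzip68. HSP90.1, HSP101, HSP70 and HSP70B were called in both genotypes in all 12 alternatives, the highest adjusted p being 0.00754 (HSP70 in wt). CLPB3 in wt ran from -0.80 to -0.61. Pairing through a replicate block changed no member's call, and called 21 genes between genotypes after H2O2 in place of 13. Counts over all genes moved more. With 1 library left out they ran from 1126 to 1544 (wt response), 719 to 1753 (bzip68 response), 8 to 122 (genotype, mock), 8 to 16 (genotype, H2O2) and 0 to 26 (difference), the 122 and the 26 without mock.wt replicate 3. DESeq2 called 215, 72 and 24 genes in the last 3; a fit of only the libraries compared 855, 17 and 31 in bzip68, mock and H2O2; and leaving out both libraries that stand apart 73 and 27 in the genotype comparisons. The members with a peak were 2 in the larger and 0 in the shorter list. Signs turned only for uncalled values, which ran from -0.16 (HSP90.4, bzip68 response) to 0.20 (HSP90.4, mock genotype comparison) in the main fit. With 1 library left out, HSP90.3 ran from -0.071 to 0.14 in the bzip68 response. In the mock genotype comparison HSP90.2 ran from -0.13 to 0.022, HSP90.3 from -0.15 to 0.075, HSP101 from -0.38 to 0.087, HSC70-1 from -0.21 to 0.071 and HSP70B from -0.19 to 0.25. After H2O2 CLPB3 ran from -0.10 to 0.086, and in the difference HSP90.4 from -0.11 to 0.072. The sum of HSP90.2, HSP90.3 and HSP90.4 was at 0.091 (bzip68 response), -0.037 (mock) and 0.33 (difference), where HSP90.4 alone had the other sign. HSP90.4 is a small part of that sum, at 18.65 CPM in mock.wt beside 213.2 for HSP90.2 and 238.7 for HSP90.3. The cause of the turned signs was not tested. HSP70B, at 19 to 39 counts per mock library, is the member whose fold depth limits most.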
